A study of Mus musculus with 3 samples.

Results

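Liver endothelial cells send short-range signals to the hepatocytes, macrophages and stellate cells around them. The 9 genes described here encode proteins that send such signals or, for Kit, receive one. In order, they are the Wnt ligands Wnt2 and Wnt9b, the Wnt amplifier Rspo3, the bone morphogenetic proteins Bmp2 and Bmp6, and the growth factor Hgf. The Notch ligand Dll4, the ephrin Efnb2 and the receptor tyrosine kinase Kit follow. All 9 were chosen by name, out of 23860 genes listed in either table. They were read in sinusoidal endothelial cells, the fenestrated cells that line the liver capillaries. A cell was counted as one when it held 6 or more molecules (UMIs, unique molecular identifiers, each standing for 1 captured mRNA) of Ptprb, Oit3, Gpr182, Clec4g, Kdr and Stab2 summed. This chose 3623 of 42971 cells, of which 2873 of 23346 (12.3%) came from the library labelled MCD and 750 of 19625 (3.82%) from the HFHC pool. All 9 genes were measured in both libraries, and none was removed by a limit on low counts.

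The cells were liver non-parenchymal cells, freed by collagenase perfusion and a density gradient, and their whole-transcriptome mRNA was counted per cell on the BD Rhapsody platform. The HFHC pool holds cells of WT mice and of Chi3l1-/- mice (Chil1-/- in the labels), both C57BL/6J and both on a high-fat, high-cholesterol diet, mixed in 1 library with no genotype attached to a cell. A library of sample tags made from the same pool had no table of its own and was not analysed here. The other library is titled MCD, but its table carries the library name APAP0h, and the study describes a library from WT C57BL/6J mice on normal chow; the table was matched to this sample because it was the only one left, and its diet is not settled. The number of cells that passed the study's limits in this table lies near the number the study gives for its chow library without being equal to it. The deposited table is marked WT, and no strain or genotype is in the labels of this sample. Age, sex and weeks of feeding are not in the labels used here. Each condition is therefore 1 library, so no difference between the libraries could be tested, and diet, genotype mix, cell isolation, capture and sequencing cannot be told apart. The 95% intervals given below are exact Poisson or binomial intervals and cover counting error alone; they do not cover the spread between mice.

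The HFHC pool was the deeper library. Its sinusoidal endothelial cells held a median of 5936.5 UMIs and 2424.5 genes, against 2290 UMIs and 1271 genes in the MCD-labelled library, and in all they held 4929380 and 8336382 UMIs. The name fitted most of the cells by markers that the rule did not use. All of 14 further sinusoidal endothelial markers were present in at least 10% of the cells in both libraries. In the MCD-labelled library 98.2% of cells carried 6 or more UMIs of them, and in the pool 97.2%. A list of 9 vascular endothelial genes, among them Ly6a, Cldn5, Sox17 and Emcn, which sinusoidal cells can also express, and Vwf, which marks larger vessels, summed to 1333 and 1467 CPM, and 20.3% and 62.3% of cells held 6 or more UMIs of it at the unlike depths given above; Vwf itself stood at 14.2 and 23.7 CPM. Other RNA was present too. In turn, 11.1% and 22.1% of the sinusoidal endothelial cells held 6 or more UMIs of Kupffer cell markers, at these unlike depths. For hepatocyte markers the shares were 16.6% and 62.1%. The Kupffer cell list takes in Slc40a1, held by 40.7% and 67.1% of the cells, and Clec4f, held by 20.7% and 13.2%. Kupffer cell markers summed to 4702 CPM (UMIs per 1000000 UMIs of the class) in the MCD-labelled library and 2659 CPM in the pool, hepatocyte markers to 1325 and 4835 CPM, neutrophil markers to 1112 and 113 CPM, stellate and fibroblast markers to 688 and 240 CPM, and T cell markers to 209 and 380 CPM. At the edge of the rule the name fitted less well. The 271 and 64 cells with 6 to 8 marker UMIs held Clec4f at 5082 and 4270 CPM. Stab2, a gene of the rule, stood at 670 and 441 CPM in them. The few cells with Vwf held less Stab2 than the others, with values given below. Of the cell labels, 756 occurred in both libraries over all cells and 0 among sinusoidal endothelial cells.

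In the liver lobule, blood runs from the portal vein along the sinusoids to the central vein. Endothelial cells near the central vein are known as the source of Wnt2, Wnt9b and Rspo3, which keep the β-catenin program of pericentral hepatocytes (Glul, Cyp2e1) active; Rspo3 binds Lgr receptors and prevents the removal of Wnt receptors from the cell surface. Bmp2 and Bmp6 from the same endothelium act on hepatocytes to switch on hepcidin (Hamp), the hormone that limits iron uptake, while Dll4 and Efnb2 belong to the periportal, artery-like end of the sinusoid and Kit to the pericentral end.

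To set a pericentral pair beside a periportal pair, the start regions of Wnt2, Wnt9b, Dll4 and Efnb2 are shown, from RefSeq on the GRCm38.p6 build. Each runs 5′ to 3′ on the gene's own strand from 250 bases before to 50 bases after the annotated start and is 300 bases long. Capitals mark matches, on either strand, to 7 short motifs that were searched for. The letters TATAAA are the usual core of the promoter element that positions the start, AGATAA is a core of the sites of GATA factors, AGGAAG is a core bound by ETS factors, CTTTGA is a core bound by LEF/TCF factors, TGGGAA is a core bound by the Notch effector RBPJ, GGGCGG is the GC box, and CCACCC is a core bound by KLF factors. The windows are chr6:18030396-18030695 (minus strand, Wnt2), chr11:103749772-103750071 (minus strand, Wnt9b), chr2:119325534-119325833 (plus strand, Dll4) and chr8:8661193-8661492 (minus strand, Efnb2).
Wnt2: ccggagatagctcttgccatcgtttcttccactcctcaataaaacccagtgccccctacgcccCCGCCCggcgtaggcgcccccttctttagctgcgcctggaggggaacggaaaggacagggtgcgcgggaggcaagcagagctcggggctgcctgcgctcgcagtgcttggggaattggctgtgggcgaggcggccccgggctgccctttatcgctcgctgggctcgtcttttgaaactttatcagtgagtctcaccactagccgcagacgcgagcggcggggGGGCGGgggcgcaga
Wnt9b: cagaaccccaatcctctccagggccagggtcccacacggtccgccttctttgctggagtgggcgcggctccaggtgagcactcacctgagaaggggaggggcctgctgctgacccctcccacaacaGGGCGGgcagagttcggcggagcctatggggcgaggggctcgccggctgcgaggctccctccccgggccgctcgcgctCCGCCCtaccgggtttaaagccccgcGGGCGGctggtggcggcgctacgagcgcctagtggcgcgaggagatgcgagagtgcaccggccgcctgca
Dll4: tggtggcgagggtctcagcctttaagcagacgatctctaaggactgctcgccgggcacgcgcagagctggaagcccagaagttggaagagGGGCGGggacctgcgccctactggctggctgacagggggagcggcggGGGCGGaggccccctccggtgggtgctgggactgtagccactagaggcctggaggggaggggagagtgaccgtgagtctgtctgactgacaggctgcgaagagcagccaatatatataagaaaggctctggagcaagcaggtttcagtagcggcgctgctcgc
Efnb2: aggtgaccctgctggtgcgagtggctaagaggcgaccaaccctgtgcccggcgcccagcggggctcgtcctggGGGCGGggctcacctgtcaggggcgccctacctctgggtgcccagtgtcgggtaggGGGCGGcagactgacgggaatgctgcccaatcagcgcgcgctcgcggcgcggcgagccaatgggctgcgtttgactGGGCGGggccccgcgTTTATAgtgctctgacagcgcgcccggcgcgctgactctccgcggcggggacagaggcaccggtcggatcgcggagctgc

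The motif that all 4 windows held was the GC box, which was also present in 35.7% of 32851 mouse promoter windows of the same length. It began at positions -187 and 36 relative to the start of Wnt2, at -124, -46 and -20 of Wnt9b, at -160 and -113 of Dll4 and at -177, -121 and -45 of Efnb2. Efnb2 alone among the 4 held the letters TATAAA, on the opposite strand at -30; 13.6% of all windows held them. The GATA, ETS, LEF/TCF, RBPJ and KLF letters, held by 11.2%, 35.4%, 16.0%, 25.6% and 31.5% of all windows, were not in these windows. A match describes letters and not a bound site. Windows were given for 7 of the 9 genes, and those of Bmp2 and Rspo3 were not used here.

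Wnt2 lies on chromosome 6 (GRCm38, 17988940 to 18030585, minus strand). It stood at 114 CPM (interval 107 to 121, 950 UMIs) in sinusoidal endothelial cells of the MCD-labelled library and at 135 CPM (125 to 146, 665 UMIs) in those of the HFHC pool. With each cell thinned to 1000 UMIs, 11.4% and 12.0% of them held a Wnt2 UMI, against 0.216% and 0.237% of B cells, which are not known to make it. B cells had median depths of 1348.5 and 2646 UMIs before thinning. Before thinning, 22.0% and 44.8% of the endothelial cells held one, at the unlike depths given above. Of all Wnt2 UMIs in kept cells, 95.7% and 96.2% were in the sinusoidal endothelial cells.

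Wnt9b, the other pericentral Wnt ligand, lies on chromosome 11 (103727364 to 103749821, minus strand) and had the fewest UMIs of the 9 genes: 224 in the MCD-labelled library (26.9 CPM, 23.5 to 30.6) and 78 in the pool (15.8 CPM, 12.5 to 19.7). It sat in few cells, since 20 cells of the MCD-labelled library and 8 of the pool held 50% of its UMIs. Rspo3, on chromosome 10 (29452416 to 29535867, minus strand), was also held by few cells. It reached 89.6 CPM (83.3 to 96.3, 747 UMIs) and 127 CPM (117 to 138, 627 UMIs), but only 190 and 82 cells held any of it. The 48 and 35 cells with 5 or more Rspo3 UMIs held 67.7% and 84.8% of the total, and 1 cell of the pool held 43. Counting intervals for Rspo3 and Wnt9b are therefore too narrow, because the molecules are not spread independently over cells. Thinned to 1000 UMIs, 4.24% and 7.31% of the endothelial cells held an Rspo3 UMI, against 0 of 926 and 0 of 843 B cells.

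The few cells classed as stellate cells and fibroblasts (19 and 10 cells, led by fibroblast genes) held Rspo3 at 714 CPM (37 UMIs) in the MCD-labelled library and 115 CPM (7 UMIs) in the pool. The 10 cells of the pool also held Wnt2 at 115 CPM (7 UMIs) and Bmp2 at 264 CPM (16 UMIs), both of which had 0 UMIs in the 19 cells. When sinusoidal endothelial cells with 3 or more stellate-marker UMIs were left out, 587 of 747 Rspo3 UMIs were left in the MCD-labelled library and 470 of 627 in the pool, and the cells left still placed the pool above the MCD-labelled library. Other genes lost UMIs as well: Bmp2 went from 13866 to 12056 and from 5435 to 4609, and Wnt9b in the pool from 78 to 53. This exclusion was added after the data were seen.

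Bmp2 was detected in most sinusoidal endothelial cells. The gene lies on chromosome 2 (133552159 to 133562885, plus strand) and stood at 1663 CPM (1636 to 1691, 13866 UMIs) in the MCD-labelled library and 1103 CPM (1073 to 1132, 5435 UMIs) in the pool. After thinning, 74.2% and 58.3% of the cells held it, against 1.08% and 0.119% of B cells, and 550 and 142 cells were needed to reach 50% of its UMIs. Bmp6, on chromosome 13 (38345107 to 38500302, plus strand), stood at 122 CPM (114 to 129) and 77.9 CPM (70.3 to 86.1), and thinned cells held it in 12.99% and 6.90%. Both genes were thus lower in the pool by level and by share of cells. Cholangiocytes, the bile duct cells, held Bmp6 at 72.4 CPM (17 UMIs in 53 cells) and 55.7 CPM (11 UMIs in 25 cells), and their intervals of 42.1 to 116 and 27.8 to 99.7 CPM overlapped those of the endothelial cells.

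Hgf, the ligand of the Met receptor on hepatocytes, was the least endothelial of the genes. It lies on chromosome 5 (16553495 to 16620152, plus strand) and stood at 55.9 CPM (50.9 to 61.2, 466 UMIs) and 50.5 CPM (44.4 to 57.2, 249 UMIs) in sinusoidal endothelial cells. These cells held 54.0% of the Hgf UMIs of the MCD-labelled library and 42.4% of those of the pool. The remainder was spread over several types. Basophils and mast cells, with 35 and 14 cells, held it at 481 CPM (324 to 686) and 880 CPM (644 to 1173), above the endothelial cells in both libraries. The stellate cell and fibroblast class held 463 CPM (24 UMIs) and 148 CPM (9 UMIs), also above. Kupffer cells held 16.2 CPM (237 UMIs) and 25.1 CPM (89 UMIs), and neutrophils 9.11 and 32.6 CPM. In the endothelial cells, leaving out those with stellate markers took Hgf from 466 to 319 UMIs in the MCD-labelled library and from 249 to 198 in the pool.

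Dll4, the Notch ligand of arterial and periportal endothelium, lies on chromosome 2 (119325784 to 119335962, plus strand) and stood at 164 CPM (156 to 173, 1371 UMIs) and 118 CPM (108 to 128, 581 UMIs). Efnb2, whose protein signals through Eph receptors such as Ephb4, lies on chromosome 8 (8617434 to 8661242, minus strand) and stood at 111 CPM (104 to 118) and 74.9 CPM (67.4 to 82.9). Both were lower in the pool. Dendritic cells held Dll4 at 7.88 and 9.59 CPM, and cholangiocytes held Efnb2 at 29.8 CPM (7 UMIs) and 15.2 CPM (3 UMIs). The 10 stellate cells and fibroblasts of the pool held Dll4 at 16.5 CPM (1 UMI) and Efnb2 at 49.4 CPM (3 UMIs), higher values that rest on few molecules. Endothelial cells held 94.4% and 88.8% of Dll4 UMIs and 92.7% and 85.8% of Efnb2 UMIs.

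Kit, the receptor for stem cell factor (Kitl), lies on chromosome 5 (75574916 to 75656722, plus strand). It stood at 216 CPM (207 to 227, 1804 UMIs) and 201 CPM (189 to 214, 992 UMIs) in sinusoidal endothelial cells, and 20.4% and 16.9% of thinned cells held it. Other cells differed between the libraries. In the class of NK cells and ILC1, Kit had 1 UMI in 128 cells of the MCD-labelled library (4.32 CPM, 0.109 to 24.0) and 95 UMIs in 209 cells of the pool (118 CPM, 95.3 to 144), where 18.7% of the cells held it. Dendritic cells held it at 56.4 and 63.3 CPM in turn. The few basophils and mast cells held it at 48.1 CPM (9.92 to 141, 3 UMIs in 35 cells) and 153 CPM (66.0 to 301, 8 UMIs in 14 cells), the second highest class of the pool. The endothelial share of all Kit UMIs was 83.2% in the MCD-labelled library and 56.4% in the pool. Among classes with 50 or more cells, each of the 9 genes was highest in sinusoidal endothelial cells in both libraries; without the limits on genes and mitochondrial share this held for 8 of the 9 in the pool, where Kit was highest in the class of NK cells and ILC1.

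**Figure D1:**
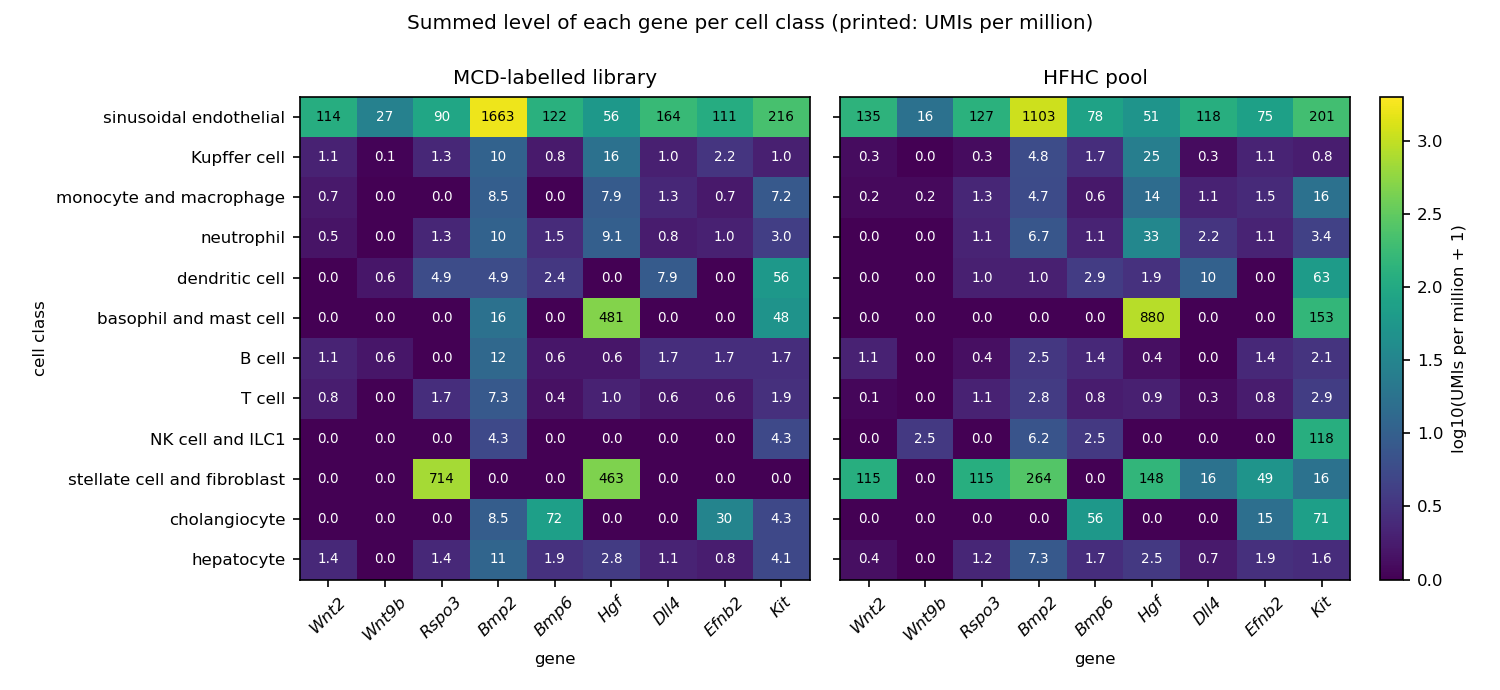
Level of each of the 9 genes (columns) in each cell class (rows), 1 panel per library, with the CPM printed in each square and the color following the log10 of CPM plus 1. The top row, sinusoidal endothelial cells, holds the highest value among classes with 50 or more cells in both panels, and for Hgf the small class of basophils and mast cells stands above it at 481 and 880 CPM.

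Between the libraries, 7 of the 9 genes were lower in the pool and 2 were higher, and none reached a 2-fold difference. The ratio below is the log2 of the CPM in the pool over that in the MCD-labelled library, with 1 UMI added on each side, so positive values are higher in the pool. Wnt9b had -0.75 (interval -1.15 to -0.39), Bmp6 -0.64 (-0.82 to -0.47), Bmp2 -0.59 (-0.64 to -0.55), Efnb2 -0.56 (-0.74 to -0.39) and Dll4 -0.48 (-0.62 to -0.34). Hgf at -0.14 (-0.37 to 0.08) and Kit at -0.10 (-0.22 to 0.01) had intervals that reached 0. Wnt2 stood at 0.24 (0.10 to 0.39) and Rspo3 at 0.51 (0.35 to 0.66).

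Of 9751 genes with 100 or more UMIs in these cells, 887 (9.10%) were at least 2-fold higher in the pool and 400 (4.10%) at least 2-fold lower, against 0 of the 9 in either direction. The median of the 9 genes was -0.48, and that of all 9751 genes was -0.02, with the middle 50% of genes between -0.35 and 0.37. The ratios of Wnt9b, Bmp6, Bmp2, Efnb2 and Dll4 lay below that middle range, Rspo3 lay above it, and Wnt2, Hgf and Kit lay inside. A list of 24 endothelial receptors and regulators in these cells was also mostly lower in the pool. Its median was -0.36, with 8 genes above 0, and Kdr stood at -0.62 and Flt4 at -0.58. The same cells differed in immediate-early and heat-shock RNA, of which 11 of 18 genes were at least 2-fold higher in the pool and 0 lower (Fos 280 and 1344 CPM, Egr1 106 and 1145 CPM, Hspa1a 33.6 and 263 CPM); these RNAs are known to rise when cells are handled. Their part in the ratios of the 9 genes was not tested.

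**Figure D2:**
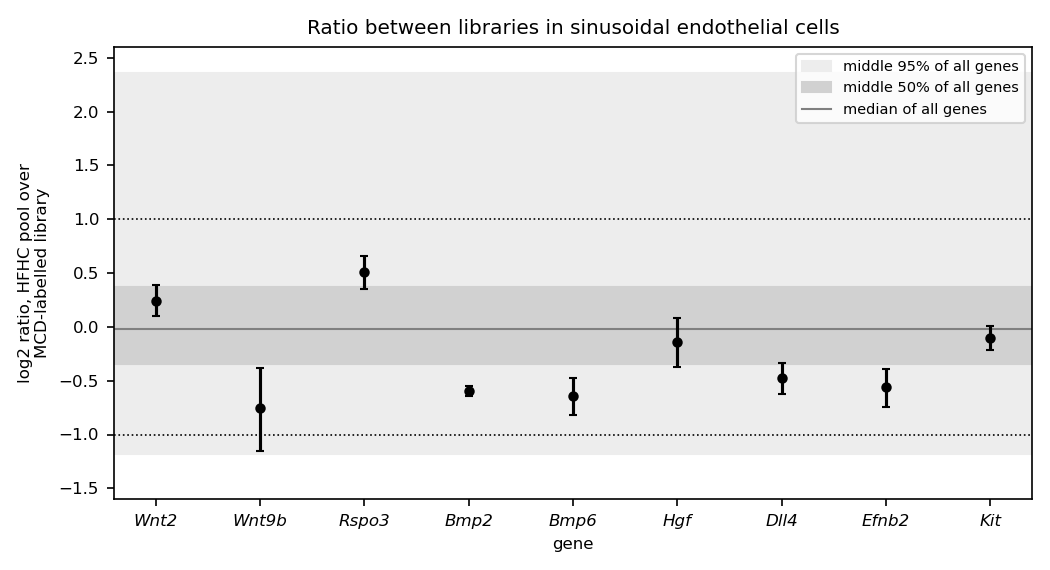
Difference in level between the libraries on the log2 scale, positive where the HFHC pool is higher, for each of the 9 genes in sinusoidal endothelial cells, with bars for the exact 95% interval from counting alone, over shaded bands for the middle 50% and 95% of all 9751 genes and dotted lines at a 2-fold difference. Wnt2 and Rspo3 lie above 0 at 0.24 and 0.51, the other genes below, and no point passes 1 or -1.

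Rspo3 was the gene whose ratio depended most on how cells were weighted: its log2 ratio was 0.51 on summed counts and 1.07 after each cell was thinned to 1000 UMIs. Cells over 4000 genes mattered as well. The 364 cells of the pool over that limit that met the marker rule, whatever their mitochondrial share, carried Clec4f, a Kupffer cell gene, at 4176 CPM. With the upper limit removed, 1113 cells of the pool met the marker rule in place of 750. All 9 genes then had ratios below 0, and 6 were at least 2-fold lower (Wnt9b, Bmp2, Bmp6, Dll4, Efnb2 and Kit). Beside them, 1172 (10.9%) of 10739 genes were at least 2-fold lower and 1291 (12.0%) higher in that setting.

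The genes were not spread evenly over the endothelial cells. To compare cells of unlike depth, each was thinned to 1000 UMIs, which kept 2455 cells of the MCD-labelled library and 739 of the pool, and cells with and without a UMI of 1 gene were set side by side. Values are the log2 of the level in cells with over cells without, and cells share a library, so they describe these libraries and carry no test. The 36 pairs of genes were each read once, with cells split by the gene that comes later in the order of the opening paragraph. Of these, 19 had a ratio above 0 in both libraries, 11 below 0 in both, and 6 a different sign in each. These ratios have 1 UMI added on each side, which turns the sign of sparse pairs, and by the levels themselves the tally was 18 higher in both, 13 lower in both and 5 different. The sign of some pairs turned with the gene that split the cells, so the tally holds for this direction alone. In the MCD-labelled library and the pool, Rspo3 was at -1.57 and -0.18 when split by Bmp2. Bmp2 was at -0.49 and 0.17 when split by Rspo3. Dll4 and Efnb2 were above 0 in both libraries whichever of them split the cells. No tally over other genes stands beside these counts. Ratios above 0 also arose when cells were split by Stab2, a gene of the marker rule. In turn for the MCD-labelled library and the pool, Bmp2 was at 0.93 and 0.61, Bmp6 at 1.03 and 1.30. Wnt2 was at 0.66 and 0.61, Kit at 0.83 and 1.42, and Dll4 at 0.65 and 0.22. Rspo3 (-2.81 and -1.61) and Wnt9b (-2.49 and -0.51) lay below 0.

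Cells with a Wnt2 UMI (279 and 89 cells) held more of the other pericentral ligands and of Kit. Rspo3 stood at 258 CPM in them and 76.3 CPM in the other cells of the MCD-labelled library (log2 ratio 1.77, interval 1.34 to 2.17), and at 393 and 177 CPM in the pool (1.18, 0.56 to 1.71). Kit stood at 466 and 250 CPM (0.91, 0.61 to 1.18) and at 416 and 232 CPM (0.87, 0.28 to 1.37). This was not particular to Wnt2, since Kit was also higher in cells with Stab2 (0.83 and 1.42). Wnt9b was higher in the MCD-labelled library (1.78, 1.05 to 2.41), while in the pool the 16 thinned UMIs, 5 against 11, gave 1.87 with an interval of -0.15 to 3.37. The sizes depended on depth. Thinned to 2000 UMIs, Wnt9b was at 2.88 (2.25 to 3.56) in the MCD-labelled library and 3.19 (2.17 to 4.56) in the pool, and Rspo3 at 2.14 (1.82 to 2.46) and 2.12 (1.77 to 2.48). With cells carrying markers of other cell types left out, an alternative added after the data were seen, Wnt9b in the pool was at 0.87 (-2.82 to 2.78). Dll4 and Efnb2 were lower in cells with Wnt2 of the MCD-labelled library (-0.81, -1.43 to -0.32, and -1.06, -1.94 to -0.43), and in the pool their intervals reached 0 (-0.63, -2.32 to 0.35, and -0.30, -2.0 to 0.70). With the same cells left out, Efnb2 in the pool was at 0.23 (-1.21 to 1.20). The Efnb2 value depended on depth: thinned to 2000 UMIs it was -0.04 (-0.43 to 0.31) in the MCD-labelled library, while Dll4 was -0.62 (-0.98 to -0.30). Bmp2 was higher in cells with Wnt2 in both libraries (0.29, 0.17 to 0.41, and 0.51, 0.23 to 0.76). These ratios lay below those of Bmp2 in cells with Stab2 (0.93 and 0.61). Bmp6 and Hgf had intervals that reached 0 in both. Bmp6 depended on the setting. Without thinning it was at 0.52 (0.32 to 0.71) in the MCD-labelled library and 0.51 (0.22 to 0.82) in the pool. In the pool it turned from -0.27 to 0.58 (-0.04 to 1.14) when thinned to 2000 UMIs. With cells carrying markers of other types left out, it was at 0.54 (0.09 to 0.93) in the MCD-labelled library.

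Cells with Rspo3 (104 and 54 cells) were rich in Wnt9b and poor in Dll4. Wnt9b had 57 UMIs in the 104 cells and 36 in the remaining 2351 of the MCD-labelled library (5.15, 4.53 to 5.81), and 11 against 5 in the pool (4.67, 3.16 to 6.68). Dll4 had 4 UMIs against 463 (-2.04, -4.24 to -0.99) and 1 against 83 (-1.73, -8.03 to -0.19). Kit was higher, at 0.89 (0.41 to 1.28) and 2.06 (1.53 to 2.53), and Efnb2 was lower in the MCD-labelled library (-2.18, -5.82 to -0.90) while its interval in the pool reached 0 (-0.38, -3.09 to 0.84). Of the 8 pericentral endothelial genes listed for this report that are not among the 9, 8 had intervals above 0 in both libraries. Of 8 periportal ones 1 had intervals below 0 in both, Msr1. In cells with Wnt2, 4 of the 8 pericentral genes had intervals above 0 in both, and 5 in cells with Wnt9b or with Kit. No share over all genes is given beside these tallies, so they cannot be read against a background. Selp, which encodes P-selectin, had 13 UMIs against 5 and 15 against 8, and Vwf, which encodes von Willebrand factor, had 30 against 5 and 21 against 4. Msr1, a scavenger receptor of the periportal and midlobular sinusoid, had 3 against 947 and 0 against 221.

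The cells with Vwf were few, 18 and 12 after thinning, and rich in Rspo3, at 3111 CPM (56 of 238 thinned Rspo3 UMIs) and 4250 CPM (51 of 150). They held less Bmp2 (333 against 1987 CPM in the MCD-labelled library, -2.35, -4.02 to -1.45, and 500 against 1204 CPM in the pool, -1.05, -2.72 to -0.14). Stab2, a gene of the marker rule, stood at 889 against 2309 CPM and at 83.3 (1 UMI) against 1309 CPM. One difference between the libraries went with fibroblast RNA: the cells with Rspo3 held 137 UMIs of Dcn against 371 in the other cells of the MCD-labelled library (3.07, 2.77 to 3.35), and 0 against 50 in the pool. Dcn encodes decorin, a matrix protein of fibroblasts, and its part in the split was not tested.

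Dll4 and Efnb2 stood together. In cells with a Dll4 UMI (391 and 76 cells), Efnb2 was at 230 against 106 CPM (1.13, 0.75 to 1.48) in the MCD-labelled library and 184 against 81.4 CPM (1.25, 0.21 to 2.05) in the pool. Ntn4, a netrin of periportal endothelium, was at 775 against 393 CPM (0.98, 0.78 to 1.17) and 855 against 422 CPM (1.03, 0.61 to 1.41), and Msr1 at 0.45 (0.21 to 0.68) and 1.41 (0.91 to 1.85). Of the 8 listed periportal genes, 4 had intervals above 0 in both libraries: Btnl9, Ltbp4, Msr1 and Ntn4. Of the 8 pericentral ones, 2 had intervals below 0 in both, Cdh13 and Jup. Btnl9 and Ltbp4 were not particular to cells with Dll4. Btnl9 also had intervals above 0 in both libraries in cells with Wnt9b and with Bmp2. Ltbp4 had them in cells with Bmp2, with Bmp6 and with Efnb2. These tallies too stand without a share over all genes. Rspo3 was nearly lacking in cells with Dll4, with 4 of 238 and 1 of 150 thinned UMIs. Kit was lower in them, at -0.78 (-1.19 to -0.43) and -0.90 (-2.11 to -0.12). Clec4f, which marks Kupffer cells, was lower in cells with Dll4 (-2.12 and -1.98) as it was in cells with Wnt2 (-2.47 and -4.07) and with Kit (-2.29 and -4.06).

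**Figure D3:**
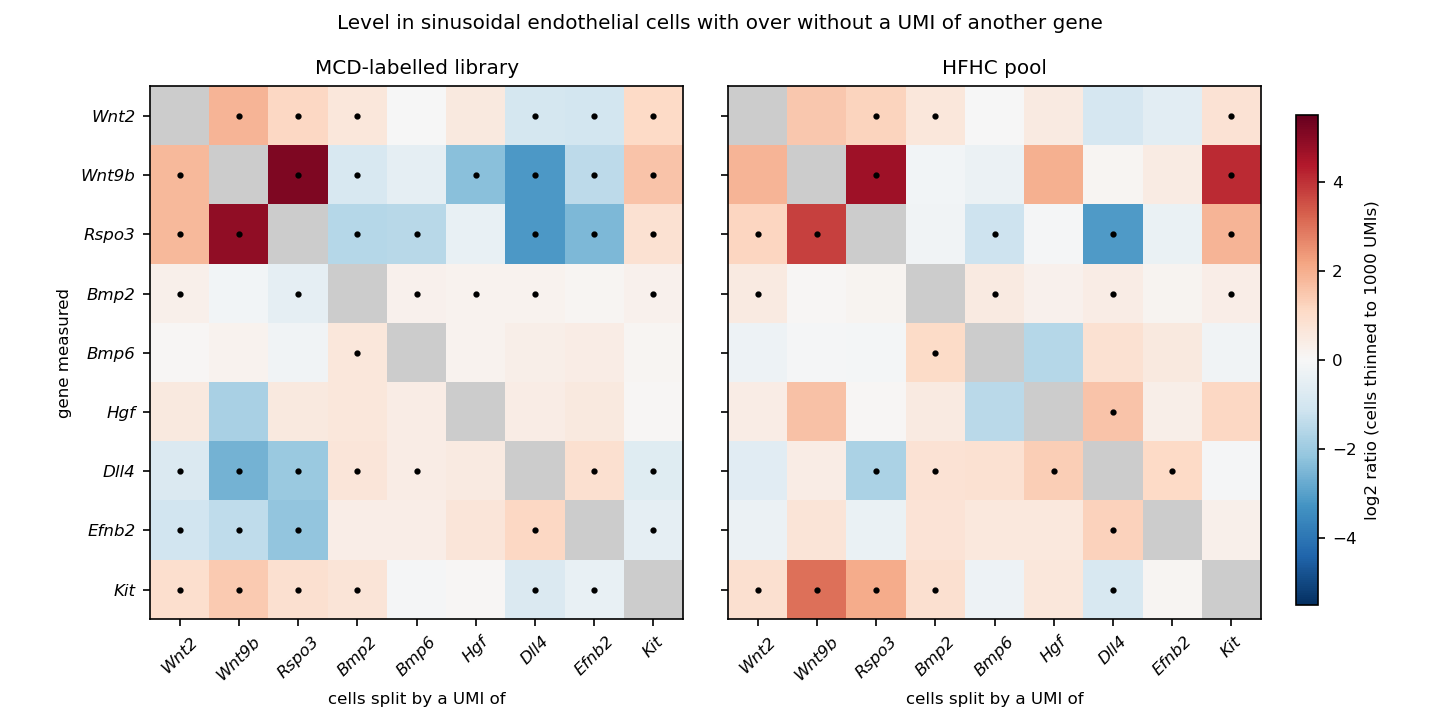
Log2 ratio of each gene (rows) between thinned sinusoidal endothelial cells with and without a UMI of the gene in the column, 1 panel per library, red above 0 and blue below, with a dot where the 95% counting interval leaves out 0. Squares among Wnt2, Wnt9b, Rspo3 and Kit are red in both panels, and Rspo3 is blue in cells with Dll4 in both (-3.15 and -3.10), while in cells with Efnb2 it is at -2.49 in the MCD-labelled library and at -0.38 in the pool, where the interval of -1.68 to 0.44 takes in 0.

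**Figure D4:**
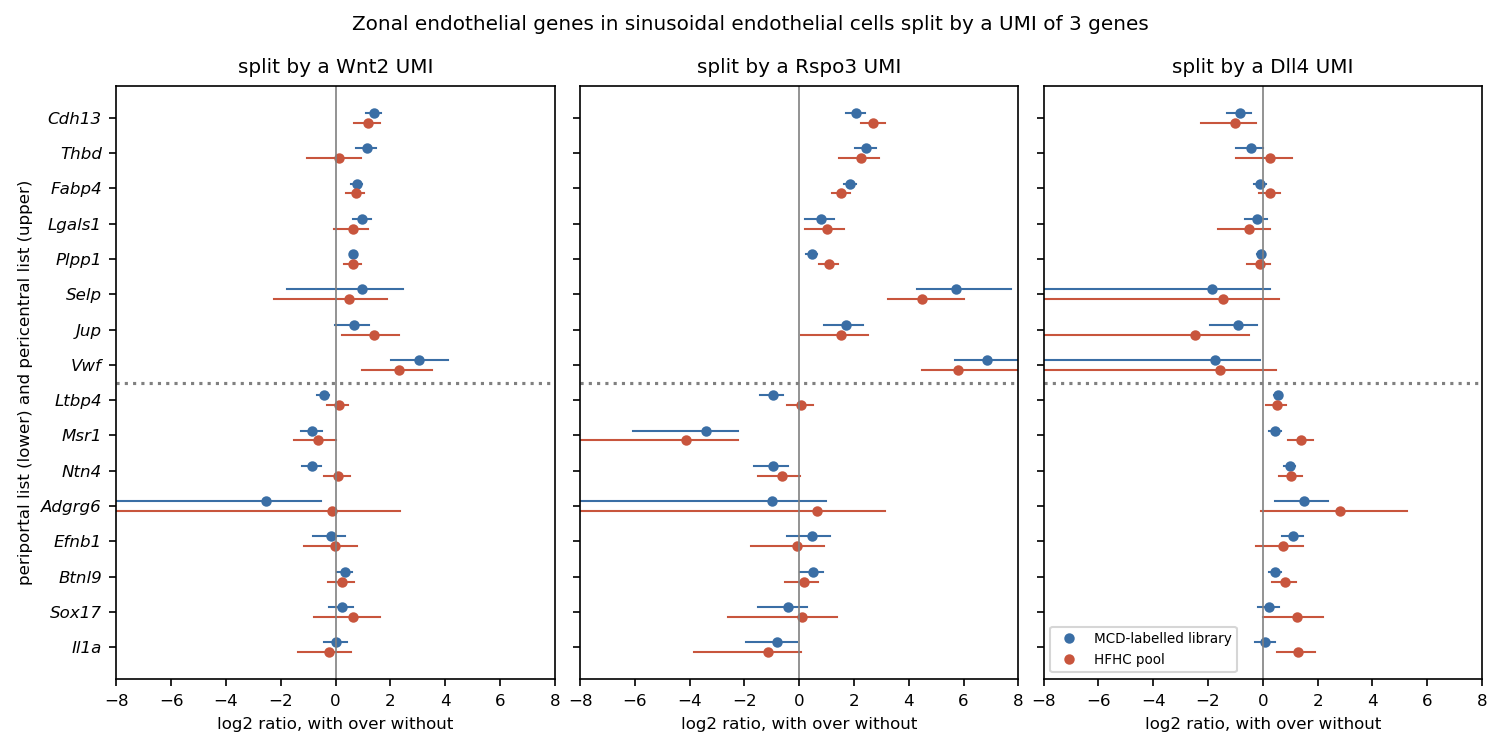
Log2 ratios of known pericentral and periportal endothelial genes in thinned sinusoidal endothelial cells with over without a UMI of the gene named above each panel, with both libraries as separate points and bars for the exact 95% interval drawn no further than 8 on either side. Selp and Vwf lie far to the right for Rspo3, at 5.72 and 6.87 in the MCD-labelled library and 4.50 and 5.80 in the pool, and Ntn4 lies to the right for Dll4.

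Genes with the most similar pattern were ranked by the smaller of the 2 libraries' log2 ratios over 2899 genes with 50 or more thinned UMIs in each library. This was done for the 7 genes held by 50 or more thinned cells of each library, and Wnt9b and Hgf were not ranked. Efnb2 came first for Dll4, followed by Ntn4 (0.98 and 1.03), Nr5a2, Chst2 and Efnb1, and Dll4 came first for Efnb2 (0.89 and 1.09). For Rspo3 the list was Amigo2, Thbd (2.44 and 2.24), Cdh13, Slco3a1 and Entpd1. For Wnt2 it was Rnase4 (1.24 and 1.35), Rspo3, Cdh13, Mxra8 and Inhbb, and for Kit it held Cdh13 (1.37 and 1.36), Olfm1, Thbd and Rspo3. Bmp2 was followed by Cntfr (1.58 and 1.38), Lyve1, Zfp503, Id4 and Chst2. Bmp6 had no gene above 1 in both libraries, and its first was Cct4 (0.97 and 1.04).

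The marker rule sets which cells enter, so the genes were also read across cells with more or fewer marker UMIs, as a description. Bmp2 stood at 20.8 and 20.4 CPM in cells with 3 to 5 marker UMIs, just outside the rule, and at 119 and 37.4 CPM in cells with 6 to 8, just inside it. It reached 2247 and 1397 CPM in cells with 40 or more. Kit stood at 3.69 and 19.4 CPM just outside, 24.2 and 16.8 CPM just inside, and 264 and 247 CPM at 40 or more. Cells just inside the rule also carried Clec4f at 5082 and 4270 CPM, against 328 and 33.7 CPM at 40 or more. Rspo3 did not follow the marker UMIs: it was highest in the MCD-labelled library at 9 to 19 marker UMIs (212 CPM) and in the pool at 20 to 39 (260 CPM), and stood at 53.1 and 140 CPM at 40 or more. Wnt9b and Vwf had their highest values in the same bins. Wnt9b went from 58.3 and 31.6 CPM there to 19.5 and 17.7 CPM at 40 or more. Vwf went from 32.7 and 68.1 CPM to 7.41 and 24.3 CPM.

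**Figure D5:**
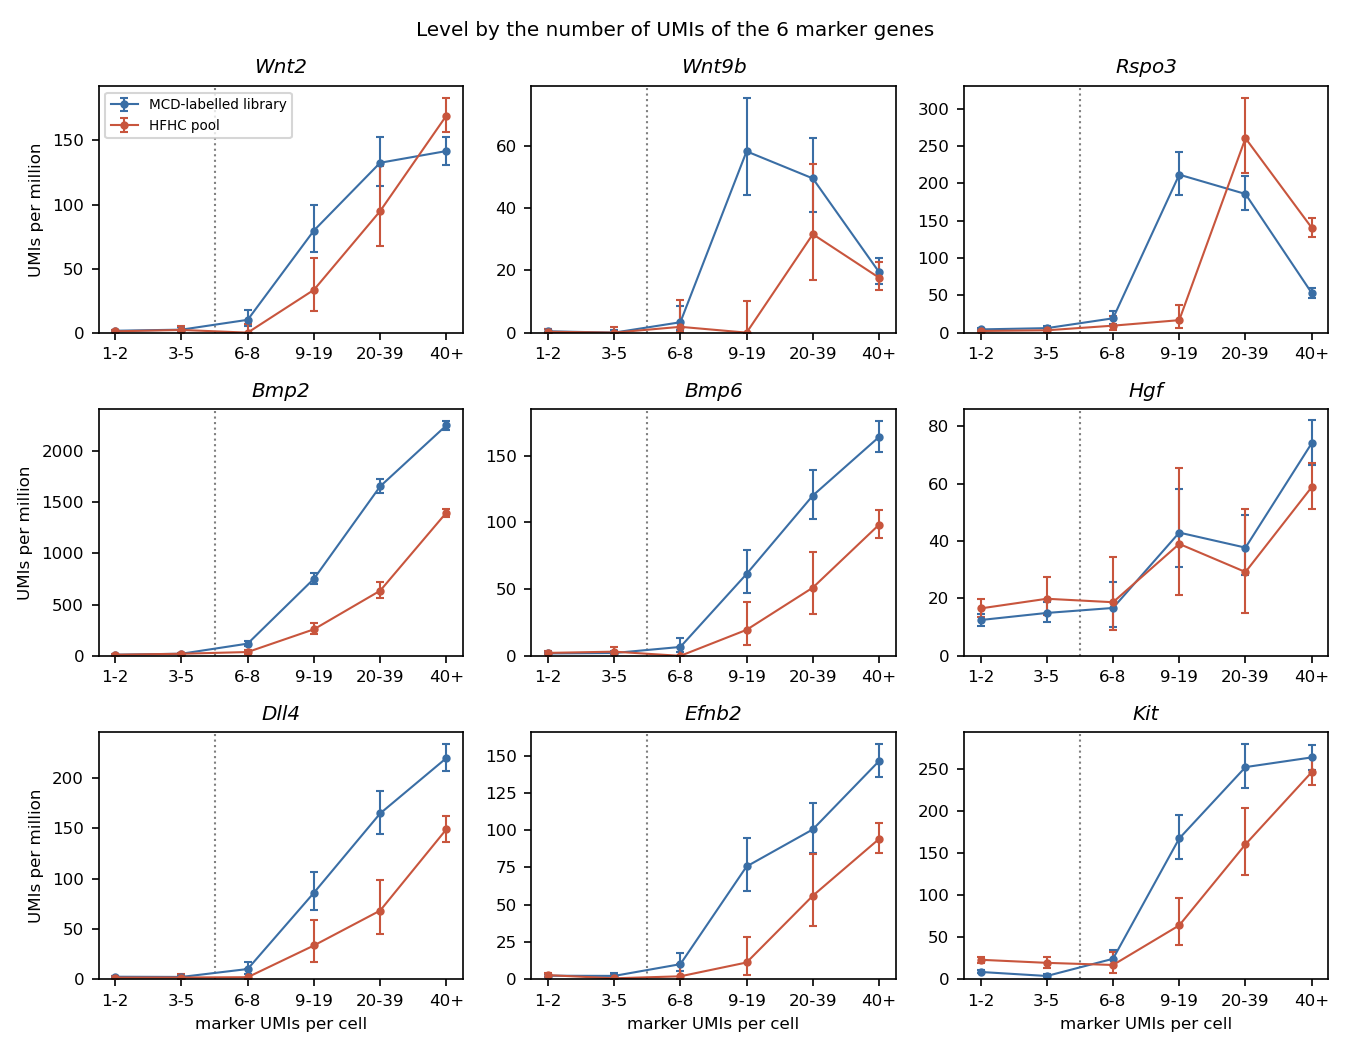
Level of each gene (CPM, linear axis from 0 with its own scale in each panel) against the number of marker UMIs in the cell, in bins from 1 to 2 up to 40 or more, with 1 line per library, bars for the exact 95% Poisson interval and a dotted line at the lower limit of the rule. Bmp2 climbs from 20.8 and 20.4 CPM just outside the rule to 2247 and 1397 CPM in the last bin, and Rspo3 has its highest values in the middle bins.

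Partners of the 9 genes in the same endothelial cells were read from lists of their pathways, against the 9.10% and 4.10% of all genes that lay at least 2-fold higher or lower in the pool. Of 14 Wnt and R-spondin ligands and secretion genes, 5 had enough UMIs, with 1 higher and 0 lower: Dkk3, a Dickkopf family member, at 15.5 and 50.7 CPM (log2 ratio 1.71, 1.40 to 2.03). Wls, which carries Wnt proteins to the cell surface, stood at 137 and 120 CPM. Of 14 Wnt receptors, 6 were measured and 1 was lower, Fzd4 at 240 and 114 CPM (-1.07, -1.21 to -0.94). The Wnt feedback gene Nkd1 went from 90.0 to 42.2 CPM (-1.09, -1.32 to -0.87); it was the 1 lower gene of 7 measured Wnt targets, of which 2 were higher, Oat (1.26) and Cyp2e1 (2.91), both hepatocyte genes.

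Of 7 measured BMP ligands and inhibitors, 3 were lower in the pool, Bmp5 (-2.64), Gdf2 (-2.81) and Bmp10 (-4.30, from 132 to 3 UMIs, -7.00 to -3.12), and 1 was higher, Bmp4 (6.48 and 19.1 CPM, 1.55). Stellate cells are a known source of Gdf2 and Bmp10, and stellate and fibroblast markers were also lower in these cells of the pool, at 240 against 688 CPM summed; their part was not tested. None of 11 BMP receptor and hepcidin pathway genes passed 2-fold; Bmpr2 stood at 294 and 352 CPM and the co-receptor Eng at 463 and 787 CPM. None of 11 Notch pathway genes did either, with a median of -0.41: Notch1 stood at 235 and 204 CPM, and the Notch targets Hes1 at 226 and 170 CPM and Nrarp at 62.5 and 31.4 CPM. Ephb4, the receptor of Efnb2, stood at 309 and 210 CPM, and Kitl, the ligand of Kit, at 82.2 and 76.5 CPM. Of 12 pericentral endothelial genes 1 was higher, Selp (6.24 and 23.9 CPM, 1.92), with a median of 0.25, and of 10 periportal ones none was past 2-fold, with a median of -0.36. None of 24 endothelial receptors and regulators passed 2-fold, with a median of -0.36 and 8 above 0. The sinusoidal transcription factors Gata4 (625 and 396 CPM) and Maf (3248 and 1948 CPM) were lower within that limit. The remaining lists had 0 of 5 HGF pathway genes, 0 of 6 BMP targets and 0 of 8 capillarisation genes past 2-fold, and of 14 other endothelial ligands Edn1 was higher (1.17) and Cxcl12 lower (-1.66).

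The cells that receive these signals were read as well. The hepatocyte class, cells left over from the density gradient or cells that carry much hepatocyte RNA, held 4653 cells of the MCD-labelled library and 5921 of the pool, with median depths of 563 and 877 UMIs. Of 7597 genes with enough UMIs there, 422 (5.55%) were at least 2-fold higher in the pool and 382 (5.03%) lower. The class was led by the periportal gene Cyp2f2 in the MCD-labelled library and by the pericentral gene Cyp1a2 in the pool. Cyp2f2 stood at 785 and 284 CPM (-1.47) and Cyp1a2 at 218 and 166 CPM (-0.40), and cells of the MCD-labelled library that met no class were led by Rgn and the pericentral gene Cyp2e1. Whether the class holds the same zones of the lobule in both libraries was not tested. Of 9 measured Wnt target genes 5 were higher and 0 lower: Glul, glutamine synthetase, at 738 and 1662 CPM (1.17, 1.11 to 1.23), Oat at 185 and 737 CPM, Cyp2e1 at 535 and 1814 CPM, Slc1a2 and Tbx3. Of 5 measured BMP targets 2 were at least 2-fold lower and 0 higher, with a median of -0.05. The others were Id2 at 0.86 (0.75 to 0.98), Atoh8 at 0.19 (-0.37 to 0.82) and Id3 at -0.05 (-0.40 to 0.32). Hamp, which encodes hepcidin and responds to Bmp2 and Bmp6, stood at 1098 CPM (3980 UMIs) in the MCD-labelled library and 60.6 CPM (488 UMIs) in the pool (-4.18, -4.32 to -4.04), and Hamp2 had -1.36. Tfr2 and Tmprss6, a sensor and a brake of the hepcidin pathway, had -1.90 and -1.72, the 2 lower genes of 11 measured.

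Free hepatocyte RNA was present in other cells of both libraries. In B cells Hamp stood at 38.0 and 6.68 CPM, and in T cells at 33.4 and 3.06 CPM. Cyp2e1 in B cells was 1.31 higher on the log2 scale in the pool. Met, the receptor of Hgf, stood at 12.1 and 9.82 CPM in the hepatocyte class (44 and 79 UMIs) and did not differ beyond its interval (-0.32, -0.86 to 0.26). Of 4 measured HGF pathway genes 1 was lower, Spint2 (-1.20), which inhibits the protease that activates Hgf, and of 3 Notch genes Hes1 was higher (2.03, 11.3 and 47.2 CPM).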

How the data were processed

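Single-cell libraries were made from mouse liver non-parenchymal cells, and 2 tables were used, 1 per library. Both hold UMI counts per cell and gene, deposited by the authors as made, per the file headers, by the BD Rhapsody WTA Analysis Pipeline 1.10.1 with refined cell calling on GRCm38 and GENCODE vM19; the labels' processing notes also name Seurat. Every value used was checked to be a whole number, and 0 columns lacked a sample.

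Cells with 200 to 4000 genes and at most 25% mitochondrial UMIs were kept, the limits the study's methods state. The study also left out cells from multiplexed captures, which was not done here. The 19625 cells kept from the pool were more than the study kept from its WT and Chi3l1-/- HFHC groups together. No doublet caller was run; endothelial cells with 6 or more UMIs of Kupffer cell or lymphocyte markers, or with hepatocyte markers at 2% or more of UMIs, were left out as an alternative. Sinusoidal endothelial cells were chosen as described. Other cells were classed by the marker list with 6 or more UMIs and at least 3 times the UMIs of the next list, hepatocytes by hepatocyte markers at 2% or more of UMIs; these limits were set after the data were seen, and cells without a clear list stayed in the classes of several types or no class.

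Counts were summed per class and library and divided by the class total (CPM, with exact 95% Poisson intervals). Shares have exact Clopper-Pearson binomial intervals. Ratios between sums are log2 values with 1 UMI added and an exact conditional binomial interval, for genes with 100 or more UMIs over both libraries. A count of 0 was read against a floor of 3 UMIs. Cells were thinned to 1000 UMIs without replacement with seed 1. Depth was 53720863 UMIs in 30734 cells of the MCD-labelled library and 71981673 in 21601 cells of the HFHC pool; 49509045 and 52044785 UMIs were in kept cells. With 1 library per condition no test was run. The ratio step was run on simulated independent Poisson counts. These lack clumping of molecules in few cells, as seen for Rspo3 and Wnt9b, so they cannot speak for the intervals there. By rule the text names all 9 genes, the 5 genes most like each by the smaller ratio of both libraries, every pathway gene past 2-fold, and from each pathway list some of the 4 with the most UMIs. One gene that this rule names is not reported here. Vwf, Selp, Msr1, Ntn4, Dcn, Clec4f, Nrarp, Kitl and Gata4, where no rule names them, were picked with their values in view. The 9 genes and all gene lists were chosen with earlier results of these data known. Alternatives changed the marker limit, the cell limits, the scaling, the minimum of UMIs and the thinning. Python 3.11.15, numpy 2.4.6, scipy 1.17.1 and matplotlib 3.10.9 were used.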

Additional observations from a re-analysis of the deposited data

Results flagged for a closer look

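The comparisons use cells with at most 4000 genes. Among the cells of the HFHC pool above that limit, 364 met the sinusoidal endothelial marker rule, and all 9 genes had more than the 3 UMIs that a count of 0 allows in them. Bmp2 had 1111 UMIs (125 CPM, exact 95% Poisson interval 118 to 133), Hgf 257 UMIs (28.9 CPM, 25.5 to 32.7) and Kit 206 UMIs (23.2 CPM, 20.1 to 26.6). Dll4 had 151 UMIs, Wnt2 123, Rspo3 108, Bmp6 103, Efnb2 78 and Wnt9b 9. Every one of these levels was below that of the 750 cells in use, where Bmp2 stood at 1103 CPM and Hgf at 50.5 CPM. In the 343 cells above the limit that were classed as Kupffer cells, Hgf had 210 UMIs (26.9 CPM, 23.3 to 30.7), an interval that overlapped that of the 364 cells, and Bmp2 stood at 7.67 CPM. Clec4f, a Kupffer cell marker, stood at 4176 CPM in the 364 cells and 4233 CPM in the 343.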

How the results depend on the processing

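The number of cells counted as sinusoidal endothelial depended on the limits. From 2873 cells in the MCD-labelled library it went to 2533 with 10 or more marker UMIs, 3760 with 3 or more, 3069 with no limits on cells, 1542 with a mitochondrial limit of 10% and 2432 with cells of other types' markers left out. From 750 in the HFHC pool it went to 675, 1060, 1127, 559 and 495 in that order, and to 1113 with no upper limit on genes. The 0 genes past 2-fold became 6 with no limits on cells or no upper limit on genes, 1 with stellate-marker cells left out (Wnt9b) and 1 with thinned cells (Rspo3), and stayed 0 otherwise. Among all genes, 887 were higher and 400 lower of 9751. These became 1335 and 1167 of 10765 with no limits on cells, and 1291 and 1172 of 10739 with no upper gene limit. With stellate-marker cells left out they were 844 and 407 of 9384, and when thinned 375 and 258 of 5387. They were 3019 and 1229 of 17262 with no minimum of UMIs, and 1451 and 724 of 12450 with a minimum of 20. Ratios of Wnt9b, Bmp2, Bmp6, Dll4 and Efnb2 were below 0 in 14 of 14 settings, Kit in 13, Hgf in 11, and Wnt2 and Rspo3 in 2, those without the upper limit on genes; Rspo3 ranged from -0.70 to 1.07 and Wnt2 from -0.94 to 0.46. In cells with Wnt2 thinned to 2000 UMIs, Hgf in the MCD-labelled library was lower (-0.61) and not higher (0.54), and Efnb2 there was -0.04 in place of -1.06. Without thinning, Wnt9b and Rspo3 in the pool were at 3.19 and 3.24, in place of 1.87 and 1.18. With cells of other types' markers left out, chosen after the data were seen, Wnt9b in the pool was at 0.87, Efnb2 in the pool was at 0.23 in place of -0.30, and Hgf was at -0.36 in the MCD-labelled library and -0.05 in the pool, in place of 0.54 and 0.41. Hgf was also at -0.13 in the pool thinned to 2000 UMIs and at -0.18 in the MCD-labelled library without thinning. The cause was not tested. No paired analysis was possible because each condition is 1 library, and leaving out a replicate was not possible for the same reason.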
